A study of Mus musculus with 27 samples.

Results

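The comparison described here is that of day 8 mouse embryoid bodies carrying a short hairpin RNA (shRNA) against Sox17 with day 8 embryoid bodies carrying a control hairpin against firefly luciferase. It rests on 4 of the 27 arrays of the study, the 2 titled for Sox17 shRNA at day 8 and the 2 titled for luciferase shRNA at day 8. The study followed both arms over 7 harvests from day 0 to day 10, with 2 arrays for each arm and day except for Sox17 shRNA at day 0, which has 1. Its title asks whether Hhex and Cer1 act in a Sox17 pathway toward cardiac mesoderm.

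Both groups are AB2.2 mouse embryonic stem cells. They were transduced with a lentiviral vector that makes both the shRNA and the fluorescent marker eGFP, sorted by flow cytometry on that marker and grown as embryoid bodies in hanging drops. Embryoid bodies are aggregates in which stem cells differentiate into a mixture of early embryonic cell types, and both groups were moved to culture plates after 4.5 days. Total RNA was labelled with biotin and hybridised to Affymetrix expression arrays. The limits of the model are a single cell line, a knockdown that leaves part of the transcript, and labels that name no second hairpin. The labels call the 2 arrays of a group biological replicates and do not say whether they came from separate transductions or cultures, so the p-values measure the spread between these samples, which may in part be technical.

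Sox17 is a transcription factor of the SoxF group, best known for its role in forming the endoderm and also present in primitive endoderm and in endothelium of the early embryo. Heart muscle forms from mesoderm that lies next to anterior endoderm, and signals from that endoderm are known to support cardiac specification. Beating heart muscle cells assemble their contractile apparatus from myosin heavy and light chains, troponins, actin and titin, whose genes are switched on together as cardiomyocytes differentiate. Primitive blood, the allantois and limb or tail mesenchyme arise from more posterior mesoderm.

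All levels below are log2 expression values as deposited, so that a difference of 1 is a 2-fold change. A difference is the mean of the Sox17 shRNA arrays minus the mean of the control arrays. A gene is said to have risen or fallen where limma's moderated test gave a Benjamini-Hochberg adjusted p under 0.05 over the 13297 genes tested. Levels are compared within a gene only, since probe brightness differs between genes. In bulk samples such as these, fewer cells of a type and less RNA per cell cannot be told apart.

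The 2 Sox17 shRNA replicates stood apart from each other by features that ran through the whole study. Eif2s3y, a translation initiation factor gene of the Y chromosome, lay between 3.09 and 3.41 in all 7 Sox17 shRNA arrays numbered replicate 1. It lay between 8.66 and 9.20 in the 6 Sox17 shRNA arrays numbered replicate 2, against 8.05 to 9.30 in the 14 control arrays of both numbers. Uty, a Y-linked histone demethylase gene, split the same way, with 3.26 to 3.75 in replicate 1 of the Sox17 shRNA arm, 6.11 to 7.61 in replicate 2 of that arm, and 5.82 to 7.43 in the control arrays. The imprinted gene Grb10, an adaptor that restrains growth factor signalling, read 7.27 and 12.55 in the 2 Sox17 shRNA arrays of day 8, against 11.49 and 11.61 in the control arrays. Arrays of the Sox17 shRNA arm that bear the same number on different days therefore share these features. The main fit treats arrays of different days as independent, so its pooled spread takes no account of this sharing. A fit with a term for the replicate number of that arm, chosen after seeing the data, called 895 genes at day 8, against 641 without the term. Over all genes, the difference between the day 8 replicates had a standard deviation of 0.365 in the Sox17 shRNA arm, against 0.137 in the control arm. The 4 day 8 arrays were alike in hybridisation control signal (bioB, 6.51 and 6.58 with Sox17 shRNA, against 6.56 and 6.64 in control). The 3' minus 5' signal of actin, a measure of RNA integrity, was 0.458 and 0.435 with Sox17 shRNA and 0.527 and 0.465 in control. The hybridisation control signal was higher at day 2 (9.17 and 9.19 with Sox17 shRNA, 9.18 and 9.05 in control). At day 4 it split the replicates of both arms (9.52 and 6.97 with Sox17 shRNA, 9.265 and 6.89 in control). Comparisons with day 2 span this difference, and the pooled spread takes in the day 4 arrays. The effect of this signal was not tested, while a fit on the 16 arrays from day 5 on called 690 genes at day 8.

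The labelled day and system were checked against defining markers. The pluripotency gene Pou5f1 read 7.13 and 7.60 with Sox17 shRNA and 7.86 and 6.46 in control at day 8, against a mean of 12.56 in day 0 control cells. On the control arrays, Tnnt2 of heart muscle, Kdr of endothelium, Hbb-y of yolk sac red cells, Col3a1 of fibroblasts and Acta2 of smooth muscle all lay above the median of all values, 5.53. Other markers lay below it on both control arrays, namely Gata1 (5.32 and 5.20), Apoa4 (5.41 and 4.91), Wt1 (5.16 and 5.02) and Tubb3 (5.17 and 5.27). Pecam1 of endothelium read 6.35 and 6.47 in control, below its day 0 control mean of 8.48. Myh11, the smooth muscle myosin, and Tbx18, an epicardial factor, did not pass the filter on low values.

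Sox17 itself read 7.90 and 8.54 in the Sox17 shRNA embryoid bodies, against 9.91 and 10.29 in the control embryoid bodies. The 2 groups did not overlap, which was true of 51% of all genes tested. The difference was -1.88 (SE 0.80), a 3.67-fold lower mean, with an adjusted p of 0.25 in limma's test, so the knockdown was not called at day 8 in a fit that draws its spread from all 27 arrays. With the 4 day 8 arrays alone the adjusted p was 0.0402, and both probe sets of the gene gave nearly the same value (-1.92 and -1.88). The difference was -0.60 at day 6 and -3.03 at day 10 (adjusted p 0.835 and 0.0205). Sox17 was therefore lower in both knockdown arrays of day 8, by an amount that the pooled test did not call.

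Neither gene of the title was called at this day. Hhex, a homeobox gene of anterior endoderm and of endothelium, read 7.55 and 6.77 with Sox17 shRNA, against 7.17 and 7.16 in control (difference 0.00, SE 0.45, adjusted p 1). The Sox17 shRNA arrays lay on either side of the control arrays. Cer1, a secreted inhibitor of Nodal, Bmp and Wnt signals, read 4.11 and 4.32 with Sox17 shRNA, against 4.38 and 4.28 in control (difference -0.11, adjusted p 0.977), which is below the median of all values on every day 8 array.

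Across the arrays, 641 of 13297 genes changed (4.82%), of which 251 rose (1.89%) and 390 fell (2.93%). A change of at least 2-fold was seen in 289 (2.17%), made up of 92 genes that rose (0.692%) and 197 that fell (1.48%). The median difference over all genes was -0.0102. With each array centred on its own median the same test called 659 genes, split into 327 that rose and 332 that fell. The excess of falls among all calls therefore depends on the scaling. The genes changed at least 2-fold were not recounted after centring. The count was 309 without control replicate 1, 316 without control replicate 2, 390 without Sox17 shRNA replicate 1 and 704 without Sox17 shRNA replicate 2.

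**Figure D1:**
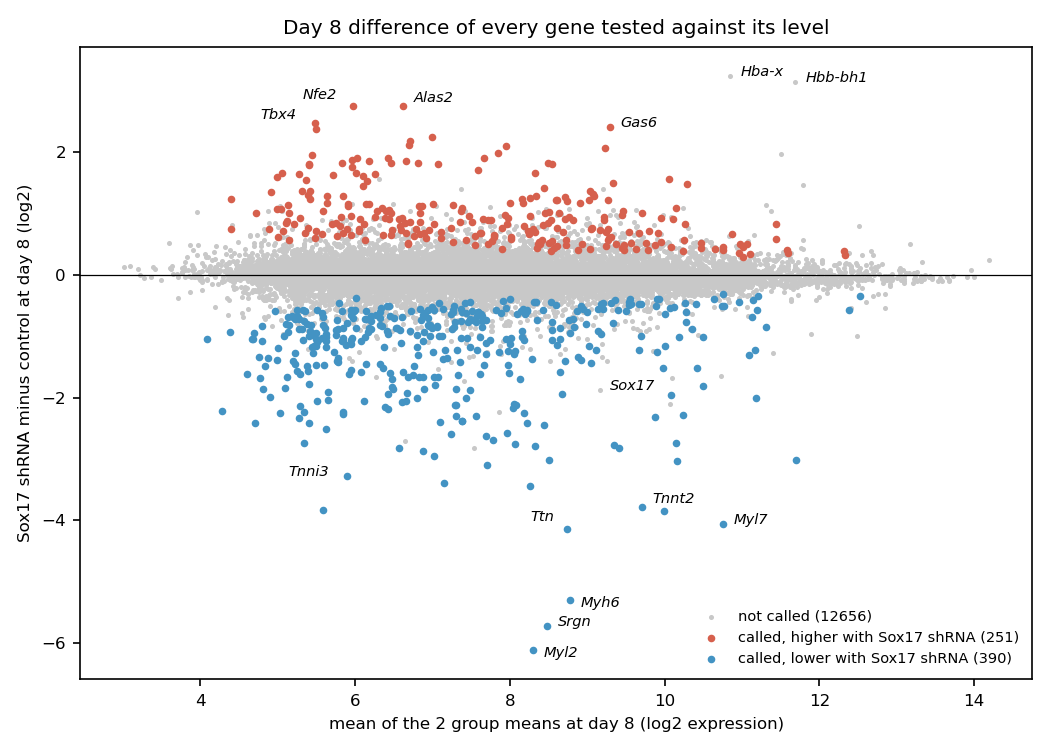
Each point is a gene at day 8, with the mean of the 2 group means (log2 expression) on the horizontal axis and Sox17 shRNA minus control (log2) on the vertical axis; red points are the 251 genes called higher and blue points the 390 called lower. The falls reach -6.11 at Myl2 and the called rises 2.75 at Nfe2, while the globin genes Hba-x and Hbb-bh1 lie above the called rises without a call.

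The contractile genes of heart muscle fell almost as a whole. Of 28 genes listed, 25 passed the filter on low values, and 22 of these fell, against 2.93% of all genes tested, with none higher. Their median difference was -2.76, against -0.0102 over all genes. The mean level of the 25 genes was 7.15 and 7.08 on the Sox17 shRNA arrays, against 9.87 and 9.67 on the control arrays. Between 20 and 22 of them fell whichever single day 8 array was left out.

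Among the myosins, Myl2, the regulatory light chain of ventricular muscle, read 4.79 and 5.70 with Sox17 shRNA, against 11.45 and 11.27 in control. The difference was -6.11 (SE 0.475, adjusted p 9.81e-08), the largest fitted fall of any gene. The knockdown mean of 5.25 lay near the group means of Myl2 before day 6 in both arms (4.46 to 5.07), so no exact fold is given. Replicate 1 of the knockdown lay below the median of all values and replicate 2 just above it, while both control arrays lay far above it. Myh6, the alpha myosin heavy chain, read 6.27 and 5.99 with Sox17 shRNA, against 11.60 and 11.26 in control (-5.30, SE 0.152, adjusted p 1.26e-13, 39.4-fold). The gap between the arms was many times the gap between replicates of either arm. Myh7, the beta or slow heavy chain, read 8.18 and 9.10 with Sox17 shRNA, against 11.79 and 11.55 in control (-3.03, adjusted p 0.00139). The light chains Myl7 and Myl4 belong to atrial and embryonic muscle. Myl7 read 9.08 and 8.38 with Sox17 shRNA, against 12.86 and 12.71 in control (-4.06), and Myl4 read 8.57 and 7.55 with Sox17 shRNA, against 11.98 and 11.84 in control (-3.85). Myl3, the essential light chain of ventricular and slow muscle, read 6.47 and 6.60 with Sox17 shRNA, against 10.01 and 9.94 in control (-3.44, adjusted p 5.4e-09).

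The thin filament moved with the myosins. Tnnt2, cardiac troponin T, which anchors the troponin complex to tropomyosin, read 8.08 and 7.54 with Sox17 shRNA, against 11.73 and 11.46 in control (-3.79, adjusted p 3.63e-11). Tnni3, the troponin I of mature heart muscle, read 4.42 and 4.08 with Sox17 shRNA, against 7.68 and 7.38 in control (-3.28, adjusted p 1.91e-07). Tnni1, its slow and embryonic counterpart, read 9.48 and 7.95 with Sox17 shRNA, against 11.12 and 10.94 in control (-2.31, adjusted p 0.000348). Both the mature and the embryonic troponin I gene thus fell. Their groups did not overlap, as in 51% of all genes tested, and the rule that picked the largest falls required this of Tnni3. Actc1, cardiac actin, was still bright in the knockdown, at 10.31 and 10.06 with Sox17 shRNA, against 13.27 and 13.14 in control (-3.02, adjusted p 8.97e-09). Tpm1, alpha tropomyosin, which is also made by smooth muscle and fibroblasts, read 12.22 and 12.82 with Sox17 shRNA and 12.82 and 12.92 in control (-0.35, adjusted p 0.494).

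Genes of the Z-disc, the M-band and the elastic filament completed the list. Titin (Ttn), the spring that spans the sarcomere, read 7.07 and 6.28 with Sox17 shRNA, against 11.33 and 10.30 in control (-4.14, adjusted p 5e-09), with all 6 of its probe sets lower. Csrp3, a muscle LIM protein of the Z-disc, read 6.18 and 6.14 with Sox17 shRNA, against 9.35 and 9.14 in control (-3.09, adjusted p 1.79e-08). The 3 measured members that did not pass were Tpm1, the small heat shock protein Cryab (-0.27) and the Z-disc gene Synpo2l (-1.09, adjusted p 0.0644). Outside the lists, 2 further genes known from heart muscle were among the 12 largest falls. Tecrl, a reductase-like protein of the cardiac endoplasmic reticulum, read 3.69 and 3.66 with Sox17 shRNA, against 7.80 and 7.20 in control (-3.82, adjusted p 2.47e-11). Sphkap, an anchor protein for protein kinase A, read 5.75 and 5.15 with Sox17 shRNA, against 8.95 and 8.73 in control (-3.39, adjusted p 9.88e-11).

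Promoter sequence was read for the 22 contractile genes that fell together, to count 3 motifs near their start sites. RefSeq promoter windows of GRCm38.p6, searched over the 250 bases before the annotated start, were found for 20 of them. Only the first listed start of each gene was searched, while some have more, such as Ldb3 with 2. The CArG box, a run of A and T between CC and GG that is known as the binding motif of serum response factor (SRF), was present on either strand in 5 of the 20 promoters (25%). It was present in 130 of the 10674 promoters of all genes tested (1.22%). The 5 stretches are printed below with 25 bases on each side and the box in capitals, read 5′ to 3′ along the gene.
Actc1: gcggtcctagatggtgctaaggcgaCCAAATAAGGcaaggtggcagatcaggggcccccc
Ldb3: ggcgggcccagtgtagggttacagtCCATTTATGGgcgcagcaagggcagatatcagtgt
Myl3: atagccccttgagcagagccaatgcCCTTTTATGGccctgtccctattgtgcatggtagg
Myl7: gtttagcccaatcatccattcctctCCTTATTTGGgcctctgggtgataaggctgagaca
Myom1: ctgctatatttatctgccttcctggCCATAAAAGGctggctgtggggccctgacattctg
These stretches lie at chr2:114052888-114052947 on the minus strand for Actc1, chr14:34588682-34588741 on the minus strand for Ldb3, chr9:110763568-110763627 on the plus strand for Myl3, chr11:5898809-5898868 on the minus strand for Myl7, and chr17:71019433-71019492 on the plus strand for Myom1. The box began between 99 bases (Myom1) and 35 bases (Ldb3) before the start. The letters AGATAA, which factors of the Gata family recognise, were found on either strand in 5 of the 20 promoters (25%), against 622 of all 10674 (5.83%). The letters AACAAT, a core recognised by Sox factors, were found in 3 of the 20 (15.0%), against 585 of all (5.48%). A match is a description of the letters and not a bound site. Srf itself read 8.36 and 8.79 with Sox17 shRNA and 8.69 and 8.77 in control (-0.16, adjusted p 0.829).

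Genes of calcium handling and electrical activity divided. Of 26 listed, 21 were measured, 11 fell (52.4%, against 2.93% of all genes) and none rose, with a median difference of -0.87. Ryr2, the calcium release channel of the cardiac sarcoplasmic reticulum, read 5.41 and 4.90 with Sox17 shRNA, against 8.15 and 7.81 in control (-2.83, adjusted p 7.24e-09). Cacna2d2, an auxiliary subunit of voltage-gated calcium channels, read 6.25 and 5.65 with Sox17 shRNA, against 8.72 and 8.36 in control (-2.59, adjusted p 2.3e-06). Pln, phospholamban, the inhibitor of the calcium pump, read 5.05 and 5.11 with Sox17 shRNA, against 7.10 and 7.18 in control (-2.06, adjusted p 2.79e-06). In each of these 3 genes the groups did not overlap, as in 51% of all genes tested. The pump that phospholamban inhibits is encoded by Atp2a2, which many cell types use, and it read 11.38 and 11.47 with Sox17 shRNA and 11.54 and 11.61 in control (-0.15, adjusted p 0.762). Gja1, connexin 43, also widely expressed, differed by -0.17 (adjusted p 0.518).

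The transcription factors of the heart were mixed. Of 23 measured, 8 fell and 1 rose (39.1% changed, against 4.82% of all genes), with a median difference of -0.44. Myocd, myocardin, a coactivator of SRF in heart and smooth muscle, read 7.32 and 6.69 with Sox17 shRNA, against 9.29 and 8.93 in control (-2.11, adjusted p 3.12e-06). Nkx2-5, a homeobox factor of early heart muscle, read 7.23 and 6.08 with Sox17 shRNA, against 8.17 and 7.97 in control (-1.42, adjusted p 0.000569). Smyd1, a muscle methyltransferase, differed by -2.07 (adjusted p 0.00021), with 5 of its 6 probe sets lower. Gata4 (-1.37, adjusted p 0.0109), Mef2c, Irx4, Hopx and Mef2a made up the other falls. The number that fell was 4 without control replicate 1, and Mef2c (-1.24) was not called without that array (adjusted p 0.0824) or without Sox17 shRNA replicate 2 (0.106). Among the 14 members without a call, Isl1 differed by -0.29 (adjusted p 0.877), Gata6 by -0.19, Tbx5 by 0.03 and Tbx20 by 0.86 (adjusted p 0.563). Hand1, a basic helix-loop-helix factor of left ventricle, allantois and trophoblast, was the member that rose. It read 9.67 and 9.21 with Sox17 shRNA, against 7.63 and 7.65 in control (1.80, adjusted p 9.29e-06).

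Hormone and metabolic genes of the myocardium also fell, with 13 of 21 measured lower (61.9%, against 2.93% of all genes), none higher and a median of -1.08. Nppa, atrial natriuretic peptide, read 4.38 and 4.65 with Sox17 shRNA, against 6.23 and 6.35 in control (-1.78, adjusted p 3.68e-06). Asb2, a substrate adaptor of a ubiquitin ligase, read 5.54 and 5.54 with Sox17 shRNA, against 8.59 and 8.41 in control (-2.95, adjusted p 2.64e-08). Srl, sarcalumenin of the sarcoplasmic reticulum, read 6.25 and 6.12 with Sox17 shRNA, against 8.80 and 8.35 in control (-2.39, adjusted p 5.4e-09). Fabp3, the fatty acid carrier of heart muscle, differed between the knockdown replicates, at 7.01 and 8.92 with Sox17 shRNA, against 10.57 and 10.90 in control (-2.77, adjusted p 0.0056). Its call ended without Sox17 shRNA replicate 1 (adjusted p 0.132) or control replicate 2 (0.0765). Nppb, brain natriuretic peptide, read 6.06 and 7.34 with Sox17 shRNA and 7.68 and 7.88 in control (-1.08, adjusted p 0.138).

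The smooth and skeletal muscle lists held 1 call each. Of 15 smooth muscle genes measured, 1 fell, Cnn1 (6.67%, against 2.93% of all genes), and the median was 0.18. Cnn1 differed by -1.03 (limma adjusted p 0.0241), and by -1.40 to -0.66 on leaving out 1 day 8 array. Its call was lost without Sox17 shRNA replicate 1, control replicate 1 or control replicate 2. Acta2, smooth muscle actin, read 13.31 and 13.56 with Sox17 shRNA and 13.25 and 13.21 in control. Of 7 skeletal muscle genes, slow troponin T (Tnnt1) fell (-0.95, adjusted p 0.000285).

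**Figure D2:**
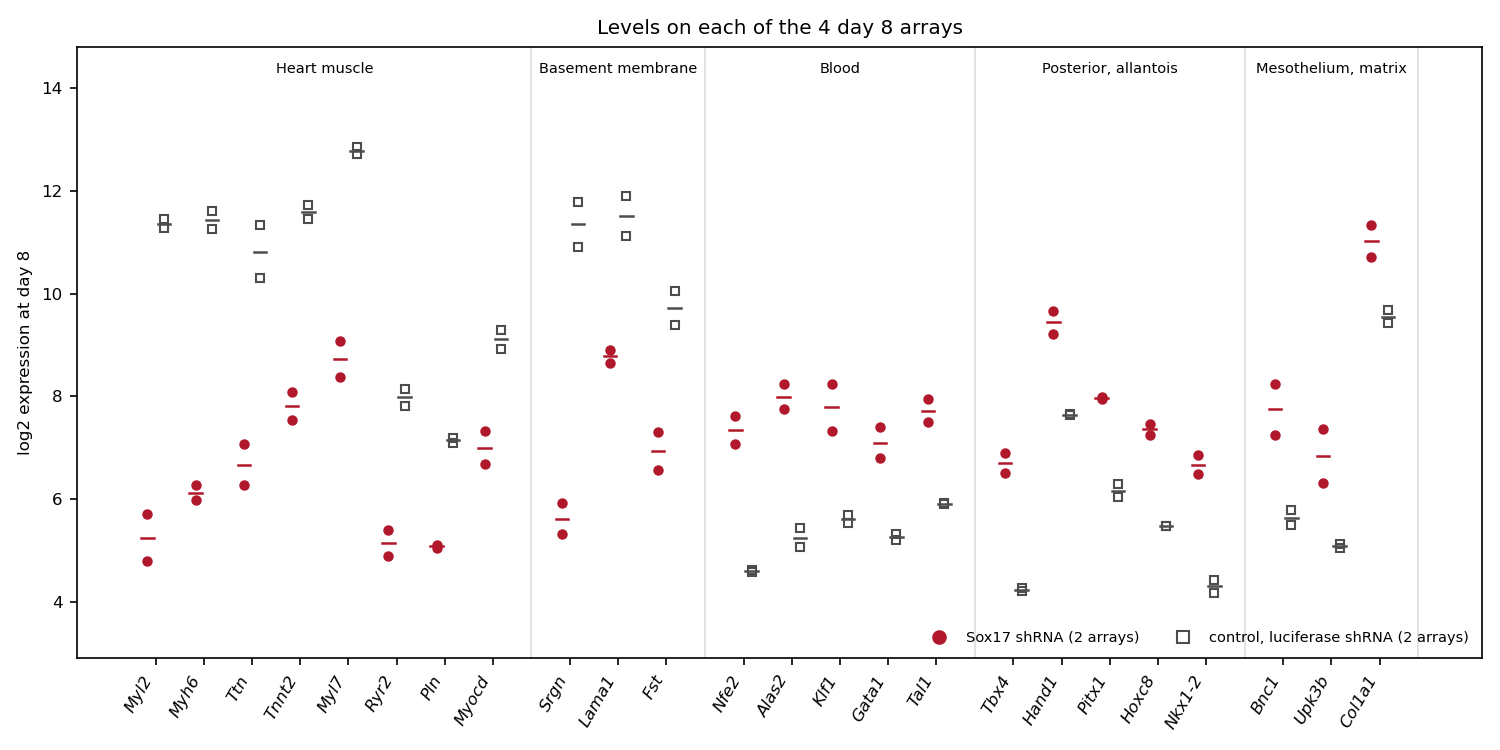
Log2 expression on each of the 4 day 8 arrays for 24 genes, with filled red circles for the 2 Sox17 shRNA arrays, open squares for the 2 control arrays and bars for group means. The red points lie below the control points for the heart muscle and basement membrane genes and above them for the blood, posterior and matrix genes. Only called genes were picked for display, so this separation follows from the choice, and uncalled members of the same lists are not shown. The groups did not overlap in 51% of all genes tested.

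Genes of basement membrane and parietal endoderm, the extraembryonic layer that secretes a thick laminin matrix, fell in part. Of 23 measured, 9 fell (39.1%, against 2.93% of all genes) and none rose, with a median of -0.51. The list median was already -0.42 at day 2, and the day 8 difference departed from that of day 2 in 3 members. Srgn, serglycin, a proteoglycan core protein that is abundant in parietal endoderm and in blood cells, gave the second largest fall of all genes. It read 5.32 and 5.93 with Sox17 shRNA, against 10.91 and 11.79 in control (-5.73, SE 0.884, adjusted p 0.00043). The laminin chain Lama1 read 8.65 and 8.91 with Sox17 shRNA, against 11.13 and 11.90 in control (-2.74, adjusted p 0.00203, and 0.0503 without control replicate 2). Its partners fell too, Lamc1 by 1.51 and Lamb1 by 1.30 on the log2 scale (adjusted p 0.000123 and 0.00136). Fst, follistatin, which binds activin, read 6.56 and 7.31 with Sox17 shRNA, against 9.40 and 10.05 in control (-2.79, adjusted p 0.00186). Pth1r, a hormone receptor of parietal endoderm, fell by 2.25 (adjusted p 3.21e-06), and Thbd, thrombomodulin, fell by 2.26 (adjusted p 4.57e-05). The type IV collagens Col4a1 (-0.997, adjusted p 0.0913) and Col4a2 (-1.28, adjusted p 0.0555) lay lower without a call, and the nidogens Nid1 (0.02) and Nid2 (-0.08) differed little. At day 2 the group means of Srgn were already 7.54 with Sox17 shRNA and 10.24 in control. Those of Lama1 were 6.57 and 8.86, and those of Fst 5.43 and 7.95.

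Endoderm lists gave no call in the pooled fit. None of 23 genes of definitive and gut endoderm and none of 17 genes of visceral endoderm and yolk sac passed in limma's adjusted test, with a median of -0.07 in each, while 4 and 3 of them had an unadjusted p under 0.05. The visceral median was -0.59 without Sox17 shRNA replicate 1 and 0.06 without Sox17 shRNA replicate 2, with 1 gene lower in the first of these fits and 1 gene higher in the other. Foxa2, a forkhead factor of endoderm and floor plate, read 6.91 and 7.32 with Sox17 shRNA and 7.88 and 8.08 in control (-0.86, adjusted p 0.0849). Cubn and Amn, which together form the endocytic receptor of visceral endoderm, varied widely between the knockdown replicates. Cubn read 7.68 and 5.81 with Sox17 shRNA and 9.003 and 8.945 in control (-2.23, adjusted p 0.396), and Amn read 5.72 and 4.76 with Sox17 shRNA and 6.85 and 6.36 in control (-1.36, adjusted p 0.15). Both were called once a term for the replicate number of the Sox17 shRNA arm was added over all days, an alternative chosen after seeing the data (adjusted p 0.0027 and 0.000166). Ttr, transthyretin of the yolk sac, read 11.51 and 8.94 with Sox17 shRNA and 10.36 and 9.42 in control. Replicate 1 of the Sox17 shRNA arm lay above replicate 2 in 16 of the 17 visceral endoderm genes, and control replicate 1 lay above control replicate 2 in 15 of them.

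Red cell genes rose. Of 14 erythroid genes measured, 8 rose (57.1%, against 1.89% of all genes) and none fell, with a median of 1.85. Nfe2, the transcription factor that drives globin and platelet genes, gave the largest rise of any gene called with the groups apart. It read 7.62 and 7.07 with Sox17 shRNA, against 4.58 and 4.61 in control (2.75, SE 0.378, adjusted p 0.000134). Alas2, the first enzyme of heme synthesis in red cells, read 8.24 and 7.75 with Sox17 shRNA, against 5.44 and 5.07 in control (2.74, adjusted p 0.00142). Klf1, the erythroid Krüppel-like factor, read 8.25 and 7.33 with Sox17 shRNA, against 5.69 and 5.54 in control (2.18, adjusted p 0.00377, and 0.0785 without Sox17 shRNA replicate 1). Gata1, the master factor of red cells and megakaryocytes, read 7.41 and 6.79 with Sox17 shRNA, against 5.32 and 5.20 in control (1.85, adjusted p 0.00203). In all 4 genes both knockdown arrays lay above both control arrays. The rule that picked the largest rises required this of Nfe2, Alas2 and Klf1, and the groups did not overlap in 51% of all genes tested. The band 3 anion exchanger Slc4a1 (1.86), Epor, Gfi1b and Ermap also rose, and Kel, a red cell surface glycoprotein outside the list, rose by 1.95 (adjusted p 0.000227).

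None of 3 embryonic globins, which red cells of the yolk sac make, passed the test, although Hba-x and Hbb-bh1 differed by more than any called erythroid gene. Hba-x, an embryonic alpha chain, read 12.82 and 12.11 with Sox17 shRNA and 9.53 and 8.93 in control (3.24, adjusted p 0.104). Hbb-bh1, an embryonic beta chain, read 13.58 and 12.93 with Sox17 shRNA and 10.49 and 9.75 in control (3.14, adjusted p 0.188). Hbb-y read 12.16 and 12.81 with Sox17 shRNA and 10.73 and 10.30 in control (1.97, adjusted p 0.519). All 3 were bright in both arms, and their groups did not overlap, as in 51% of all genes. The erythroid count was 4 without Sox17 shRNA replicate 1 and 5 without control replicate 2.

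RefSeq promoters (GRCm38.p6) were found for 6 of the 8 erythroid genes that rose, and 2 of the 6 (33.3%) held AGATAA on either strand, against 5.83% of all promoters. The 2 stretches are printed to set beside the heart muscle promoters above, with the motif in capitals as it reads along the gene, where it appears as its reverse complement.
Alas2: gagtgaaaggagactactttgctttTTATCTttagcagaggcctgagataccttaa
Epor: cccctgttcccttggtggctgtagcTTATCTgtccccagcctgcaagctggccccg
They lie at chrX:150547306-150547361 on the plus strand for Alas2 and chr9:21963600-21963655 on the minus strand for Epor, and the motif began 86 and 54 bases before the start. None of the 6 promoters held the CArG box, and 1 (16.7%) held AACAAT.

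Other blood and endothelial genes divided. Of 20 genes of megakaryocytes, platelets and other blood, 25% changed, against 4.82% of all genes. The platelet integrins Itga2b (1.12) and Itgb3 and the platelet protein Plek rose, while Srgn and the stem cell factor receptor Kit fell. The 3 rises came to 1 without Sox17 shRNA replicate 1, without control replicate 1 and without control replicate 2. Plek read 7.13 and 6.66 with Sox17 shRNA, against 5.10 and 4.94 in control (1.87, adjusted p 0.000297). Kit (-1.15, adjusted p 0.022) was not called without Sox17 shRNA replicate 1 (0.0608), Sox17 shRNA replicate 2 (0.116) or control replicate 2 (0.345). Of 25 endothelial genes, 12% changed, against 4.82% of all genes. Tal1 and Lyl1, factors shared by blood and endothelial progenitors, rose, and the SoxF factor Sox7 fell. Tal1 read 7.94 and 7.50 with Sox17 shRNA, against 5.92 and 5.90 in control (1.81, adjusted p 3.42e-05). At day 2 its group means were already 6.34 with Sox17 shRNA and 5.04 in control, and the change of its difference since then was not called. Lyl1 differed by 1.12 (adjusted p 0.00242, and 0.0515 without Sox17 shRNA replicate 1). Sox7 read 6.80 and 6.05 with Sox17 shRNA, against 8.03 and 8.83 in control (-2.01, adjusted p 0.00314, and 0.0869 without control replicate 2), and its second probe set did not share the direction. Sox18, the third SoxF gene, read 8.20 and 6.61 with Sox17 shRNA and 7.97 and 7.94 in control (-0.55, adjusted p 0.656). Endothelial markers split the knockdown replicates: replicate 1 lay above replicate 2 in 24 of 25 endothelial genes, and the list's mean level was 7.39 and 6.50 with Sox17 shRNA, against 7.12 and 7.17 in control. Cdh5, the cadherin of endothelial junctions, read 6.97 and 5.69 with Sox17 shRNA and 6.48 and 6.64 in control (-0.23, adjusted p 0.885).

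Genes of allantois and other extraembryonic mesoderm rose, 7 of 17 measured (41.2%, against 1.89% of all genes), with none lower and a median of 0.83. Tbx4, a T-box factor of allantois and hindlimb, read 6.52 and 6.91 with Sox17 shRNA, against 4.27 and 4.21 in control (2.47, SE 0.207, adjusted p 2.79e-07). Pitx1, a homeobox factor of hindlimb and posterior mesoderm, read 7.95 and 7.99 with Sox17 shRNA, against 6.04 and 6.29 in control (1.81, adjusted p 0.000187). Hand1, given above, belongs to the same list. So do Hoxa10 and Hoxa11, which are counted again among the Hox genes below. The control arrays of Tbx4 lay below the median of all values, and both knockdown arrays lay above it. The imprinted gene Dlk1, a secreted and membrane-bound Notch relative, differed by 0.83 (adjusted p 0.0169) and Plac1, a placental gene, by 1.12 (adjusted p 0.0346). Both of these were lost without Sox17 shRNA replicate 1 (adjusted p 0.205 and 0.153), without control replicate 1 (0.143 and 0.169) and without control replicate 2 (0.098 and 0.219), and Plac1 also without Sox17 shRNA replicate 2 (0.0944). The count for the list was 4 without Sox17 shRNA replicate 1 and 4 without control replicate 2.

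Hox genes, which mark position along the body axis, rose in the middle and posterior parts of the clusters. Of 23 measured, 9 rose (39.1%, against 1.89% of all genes) and none fell, with a median of 0.37. Those that rose were Hoxb6, Hoxc6, Hoxc8, Hoxd8, Hoxa10, Hoxc10, Hoxd10, Hoxa11 and Hoxd13. Hoxc8 read 7.26 and 7.47 with Sox17 shRNA, against 5.47 and 5.48 in control (1.89, adjusted p 1.19e-05). Hoxc10 read 5.97 and 6.29 with Sox17 shRNA, against 4.69 and 4.50 in control (1.54, adjusted p 5.17e-05), and Hoxa11 read 6.09 and 5.89 with Sox17 shRNA, against 4.70 and 4.56 in control (1.36, adjusted p 0.00338). Control group means of Hoxc10 and Hoxa11 lay below the filter value of 5.53 at every day, at most 4.66 and 5.33. Their Sox17 shRNA means lay above it from day 6 on. Of the 34 Hox genes listed, 8 did not pass this filter, which can keep a gene through 1 arm alone and so raise the share of rises. None of the 8 measured Hox genes numbered 1 to 5 was called, with values such as -0.35 for Hoxb2 and -0.33 for Hoxa5. Nkx1-2, a homeobox gene of the tail bud progenitors, was the single call among 24 genes of primitive streak and early mesoderm (4.17%, against 4.82% of all genes). It read 6.48 and 6.87 with Sox17 shRNA, against 4.43 and 4.18 in control (2.37, adjusted p 3.21e-06).

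Mesenchymal matrix genes rose in part, with 7 of 30 measured higher (23.3%, against 1.89% of all genes), none lower and a median of 0.57. Col1a1, an alpha chain of type I collagen, read 10.72 and 11.33 with Sox17 shRNA, against 9.42 and 9.68 in control (1.47, adjusted p 0.00122). Its partner chain Col1a2 read 11.34 and 10.32 with Sox17 shRNA, against 9.23 and 9.33 in control (1.55, adjusted p 0.00216, and 0.058 without Sox17 shRNA replicate 1). Loxl1, a crosslinking enzyme of elastic fibres, read 9.63 and 9.80 with Sox17 shRNA, against 8.21 and 8.51 in control (1.35, adjusted p 0.004, and 0.0711 without control replicate 1). Fbln2, Twist2, Col5a1 and Col5a2 rose as well, and Postn, periostin, read 12.49 and 12.55 with Sox17 shRNA and 10.94 and 11.19 in control (1.46, adjusted p 0.148). The list's mean level was 8.91 and 9.09 with Sox17 shRNA, against 8.46 and 8.59 in control. The count was 4 without Sox17 shRNA replicate 1, 3 without control replicate 1 and 4 without control replicate 2.

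Genes of epicardium and mesothelium, the covering layer of heart and body cavity, showed 5 rises and 1 fall among 13 measured (46.2% changed, against 4.82% of all genes), with a median of 0.85. Bnc1, a zinc finger factor of mesothelium, read 8.25 and 7.26 with Sox17 shRNA, against 5.50 and 5.78 in control (2.11, adjusted p 0.0043). Upk3b, a uroplakin of mesothelium, read 7.37 and 6.31 with Sox17 shRNA, against 5.05 and 5.13 in control (1.76, adjusted p 0.00422). Both calls ended without Sox17 shRNA replicate 1 (adjusted p 0.091 and 0.102) and without control replicate 1 (0.0617 and 0.0503). None of the 5 rises was called without either of these arrays, and 3 were called without control replicate 2. Sema3d, a guidance cue, fell, at 3.69 and 4.77 with Sox17 shRNA, against 6.37 and 6.55 in control (-2.23, adjusted p 0.000273). Wt1, a defining epicardial gene, read 5.53 and 5.01 with Sox17 shRNA and 5.16 and 5.02 in control.

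Several of the largest rises belong to none of these lists. Gas6, a secreted ligand of the Tyro3, Axl and Mertk receptors, read 10.17 and 10.81 with Sox17 shRNA, against 7.95 and 8.22 in control (2.41, adjusted p 2.64e-05). Apela, a peptide hormone of the apelin receptor, read 9.15 and 8.52 with Sox17 shRNA, against 7.05 and 6.68 in control (1.97, adjusted p 2.76e-05). Hsd11b2, which inactivates glucocorticoids, read 10.68 and 9.84 with Sox17 shRNA, against 8.21 and 8.18 in control (2.07, adjusted p 0.00018). For these 3 genes both knockdown arrays lay above both control arrays, as the rule that picked the largest rises required. Cbln1, a secreted protein known from cerebellar synapses, rose by 2.10 (adjusted p 1.84e-05). Tdo2, an enzyme of tryptophan breakdown, read 8.18 and 8.04 with Sox17 shRNA, against 5.70 and 6.04 in control (2.24, adjusted p 0.0435), and it was not called when any 1 of the 4 arrays was left out (adjusted p 0.102 to 0.281).

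**Figure D3:**
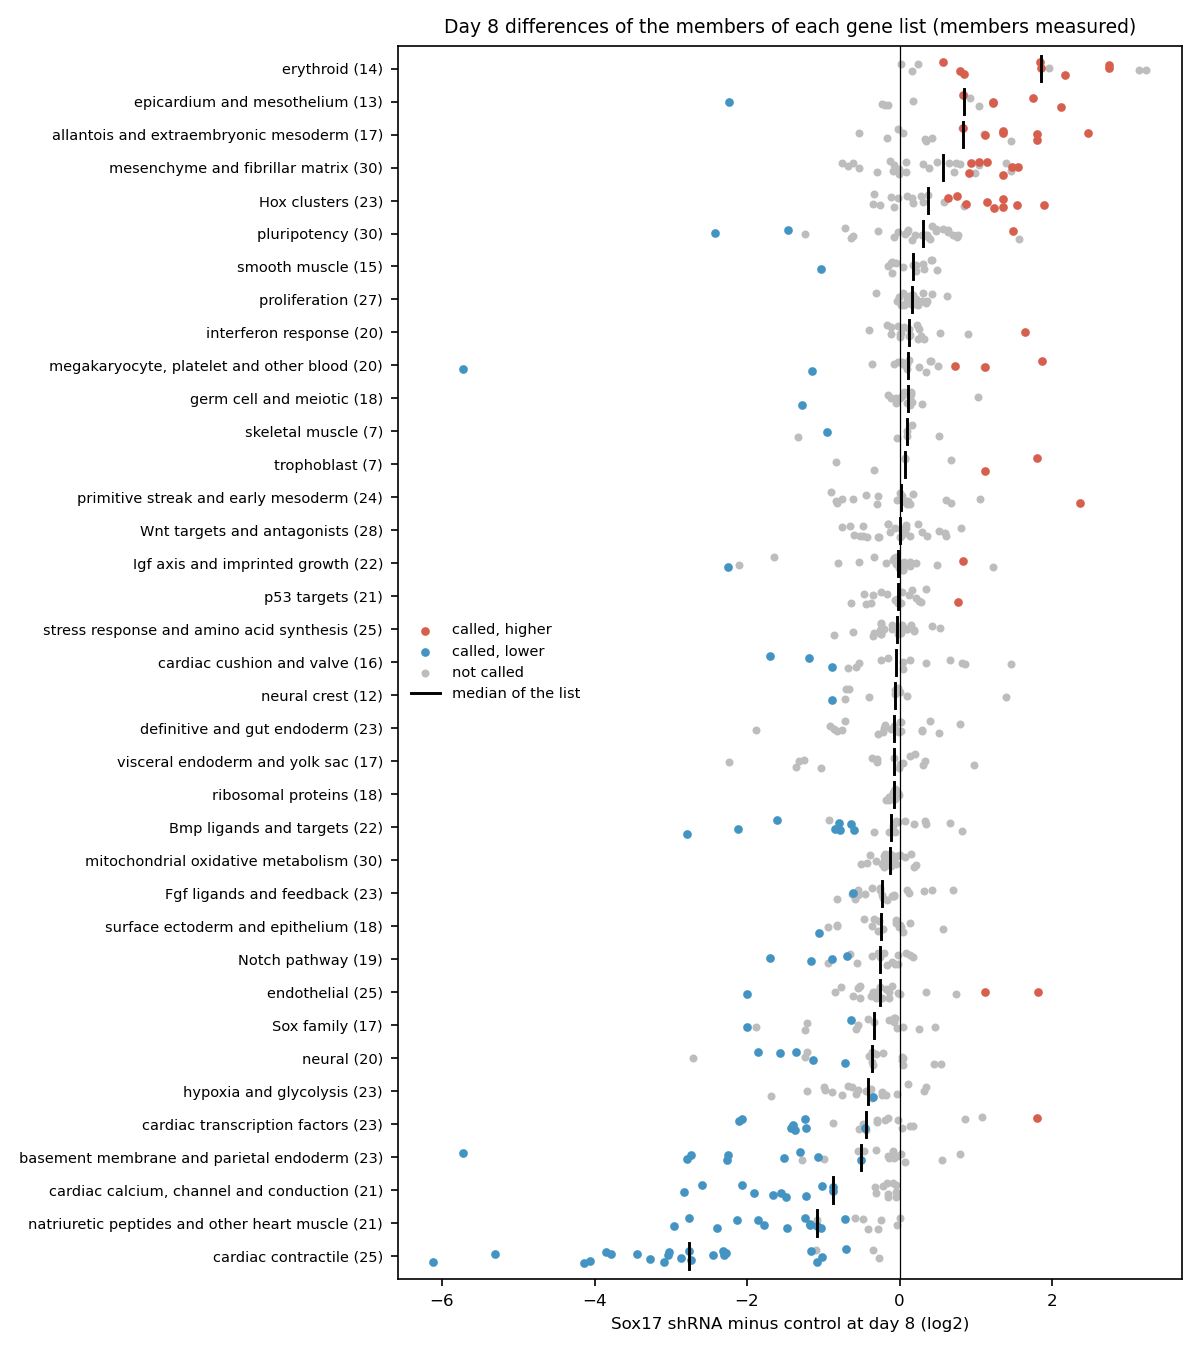
Each row is a gene list with its number of measured members, each point a member's Sox17 shRNA minus control difference at day 8 (log2), coloured where called, and each black bar the median of the list. The rows run from the erythroid list (median 1.85) at the top to the cardiac contractile list (median -2.76) at the bottom, and 7 of the lists have no called member.

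Among signalling lists, the Bmp pathway held the most calls. Of 22 Bmp pathway genes measured, 8 fell (36.4%, against 2.93% of all genes) and none rose, with a median of -0.11. They were the ligands Bmp6 and Bmp7, the extracellular regulators Bmper and Fst, and the inhibitor of differentiation genes Id1, Id2, Id3 and Id4, which Bmp signals are known to induce. Bmper read 6.16 and 6.29 with Sox17 shRNA, against 8.14 and 8.54 in control (-2.12, adjusted p 0.023), and its call ended when any 1 array was left out (0.0668 to 0.219). Id4 read 6.78 and 7.58 with Sox17 shRNA, against 8.63 and 8.94 in control (-1.60, adjusted p 0.00793, and 0.145 without Sox17 shRNA replicate 1 and 0.115 without control replicate 2). Bmp4 differed by 0.34 (adjusted p 0.682) and the targets Msx1 and Msx2 by 0.81 and 0.34 without a call. The count of falls was 4 without Sox17 shRNA replicate 1 or without control replicate 1 and 2 without control replicate 2.

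Of 19 Notch pathway genes, 4 fell (21.1%, against 2.93% of all genes), namely the ligand Dll4, the receptor Notch4 and the targets Hey1 and Heyl. Hey1 read 7.58 and 6.99 with Sox17 shRNA, against 8.98 and 8.97 in control (-1.69, adjusted p 0.0026), and Heyl read 4.74 and 4.99 with Sox17 shRNA, against 5.78 and 5.72 in control (-0.89, adjusted p 0.00122). Notch4 (-1.16, adjusted p 0.00413) was not called without Sox17 shRNA replicate 2 (0.0559), and 2 of its 3 probe sets were lower. Hey1, Heyl and the matrix link protein Hapln1 (-1.19, limma adjusted p 0.0195) were the 3 falls among 16 genes of cardiac cushion and valve (18.8%, against 2.93% of all genes). Hapln1 was not called without Sox17 shRNA replicate 2, control replicate 1 or control replicate 2. None of 28 Wnt targets and antagonists was called by limma (6 at an unadjusted p under 0.05, and 2 rises without Sox17 shRNA replicate 1 and 1 without Sox17 shRNA replicate 2), and Wnt5a differed by 0.81 (adjusted p 0.6) and Dkk1 by -0.75 (adjusted p 0.484). Spry1, a feedback inhibitor, was the single fall among 23 Fgf genes (4.35%, against 2.93% of all genes), at -0.61 (limma adjusted p 0.0312). Its difference ran from -0.74 to -0.49 on leaving out 1 day 8 array, and its call was lost whichever array was left out.

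Of 22 genes of the insulin-like growth factor axis and imprinted growth, 9.09% changed, against 4.82% of all genes. Igfbp1, a secreted binding protein, fell, and Dlk1, given above, rose. Igfbp1 read 4.00 and 3.81 with Sox17 shRNA, against 6.31 and 5.99 in control (-2.25, adjusted p 4.63e-06), and both knockdown arrays lay below the median of all values. Of 20 neural genes, 5 fell (25%, against 2.93% of all genes): the forebrain homeobox genes Otx2, Six3, Lhx2 and Hesx1 and the eye and neural tube factor Pax6. Otx2 read 5.90 and 6.02 with Sox17 shRNA, against 7.78 and 7.85 in control (-1.86, adjusted p 6.51e-05). Six3 read 5.04 and 5.15 with Sox17 shRNA, against 6.35 and 6.57 in control (-1.36, adjusted p 6.69e-05). Pax6 differed by -1.57 (adjusted p 0.000258), and 3 of its 5 probe sets were lower. The neural count was 3 without control replicate 1 and 3 without control replicate 2. Mitf of neural crest (-0.89, adjusted p 0.00248), Trp63 of surface ectoderm (-1.05, adjusted p 0.00043, and 0.892 with no filter on low values), the germ cell gene Mov10l1 (-1.28, adjusted p 0.000103) and the neural factor Sox21 (-0.63, adjusted p 0.00934) also fell, and Ifit2, an interferon-induced gene, rose by 1.65 (adjusted p 1.37e-05). Mitf was the single call among 12 neural crest genes (8.33%, against 2.93% of all genes lower). Trp63 was the single call among 18 surface ectoderm genes and Mov10l1 among 18 germ cell genes (5.56% each). Ifit2 was the single call among 20 interferon genes (5%, against 1.89% of all genes higher). Sox21 and Sox7 were the falls among 17 Sox genes (11.8%). Sox21 was not called without Sox17 shRNA replicate 1 (0.102) or control replicate 1 (0.169).

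Pluripotency genes gave 1 rise and 2 falls among 30 measured (10% changed, against 4.82% of all genes). Klf4, a Krüppel-like factor of stem cells and epithelia, read 6.46 and 7.56 with Sox17 shRNA, against 9.23 and 9.63 in control (-2.42, adjusted p 0.0024, and 0.0598 without Sox17 shRNA replicate 1). Dppa5a (1.49, adjusted p 0.043) was not called without Sox17 shRNA replicate 1 (0.375) or control replicate 2 (0.641). Tdgf1, a Nodal co-receptor (-1.47, adjusted p 0.0371), was not called without Sox17 shRNA replicate 1 (0.33), control replicate 1 (0.381) or control replicate 2 (0.0569). The core factor Nanog read 6.50 and 6.36 with Sox17 shRNA and 6.09 and 5.25 in control, against a mean of 11.67 in day 0 control cells.

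Several lists separated the knockdown replicates from each other, where 7034 of all 13297 genes lay higher in Sox17 shRNA replicate 1 and 4991 higher in control replicate 1. Genes of proliferation lay higher in Sox17 shRNA replicate 1 than in replicate 2 in 27 of 27 measured, with mean levels of 10.05 and 9.50 with Sox17 shRNA, against 9.59 and 9.64 in control, and none was called between the arms (4 at an unadjusted p under 0.05, and 2 rises without Sox17 shRNA replicate 2). Genes of hypoxia and glycolysis lay higher in replicate 1 in 21 of 23, with mean levels of 10.33 and 9.52 with Sox17 shRNA, against 10.43 and 10.39 in control. In that list the pyruvate kinase Pkm was the single fall (4.35% of the list, against 2.93% of all genes), at -0.35 (limma adjusted p 0.0308). Its call was lost without Sox17 shRNA replicate 2, control replicate 1 or control replicate 2. The list held 8 falls without Sox17 shRNA replicate 1 and none without Sox17 shRNA replicate 2. Targets of p53 ran the other way, with replicate 1 above replicate 2 in 2 of 21, with mean levels of 8.22 and 8.88 with Sox17 shRNA, against 8.54 and 8.61 in control. Fas, a death receptor, was the single call among the 21 p53 targets (4.76%, against 1.89% of all genes higher), with a rise of 0.76 (limma adjusted p 0.0403). Its difference ran from 0.68 to 0.85 on leaving out 1 day 8 array, and its call was lost whichever array was left out. Erythroid genes lay higher in replicate 1 in 12 of 14 in the Sox17 shRNA arm and in 12 of 14 in the control arm, with mean levels of 8.75 and 8.39 with Sox17 shRNA, both above 7.09 and 6.86 in control. The contractile heart list was split, with replicate 1 above replicate 2 in 15 of 25, so its close means hide members that differ between the knockdown replicates, such as Tnni1 (9.48 and 7.95). None of 30 mitochondrial genes, 25 stress response genes or 18 ribosomal protein genes was called by limma without a replicate term, with 7, 3 and 4 at an unadjusted p under 0.05, and the ribosomal median was -0.07. Without Sox17 shRNA replicate 2, 2 mitochondrial genes and 1 stress response gene were called.

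The day 8 difference was set against that of the harvests on either side, which share no array with it, although same-numbered Sox17 shRNA arrays of different days share the features given above. Of the 641 genes called at day 8, 276 were called in the same direction at day 6 (43.1% of the day 8 calls and 39.9% of the 691 day 6 calls, themselves 5.2% of all genes) and 2 in the opposite direction. At day 10, 485 were called in the same direction (75.7% of the day 8 calls and 36.5% of the 1330 day 10 calls, themselves 10% of all genes) and none in the opposite direction. At day 2, 58 were called in the same direction (9.05% of the day 8 calls and 17.2% of the day 2 calls). The median difference of the contractile list was -1.93 when taken from the day 6 arrays, beside -2.76 for day 8 and -2.54 for day 10, and it was -0.03 on day 2.

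**Figure D4:**
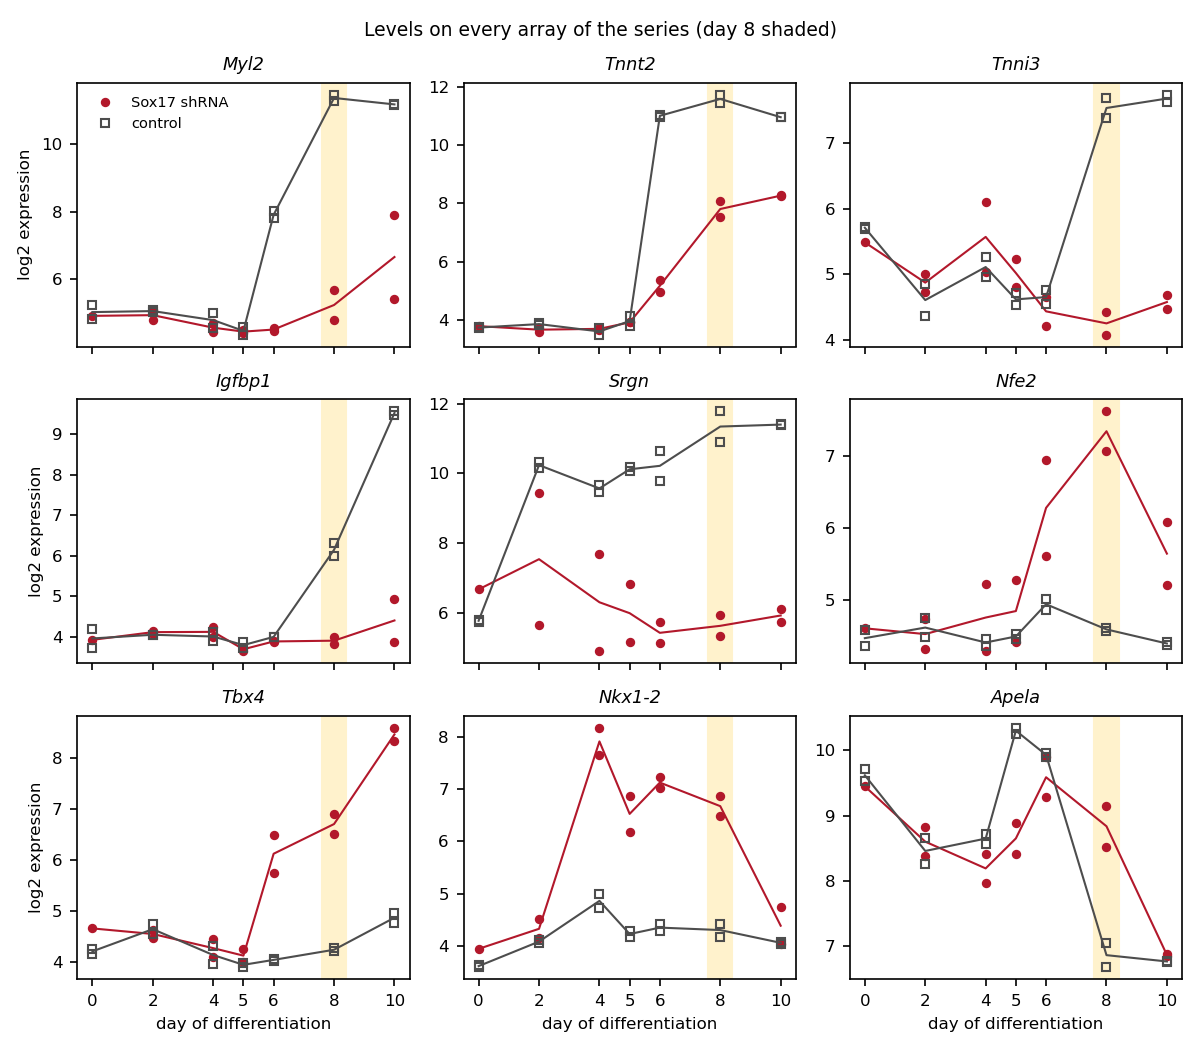
Log2 expression of 9 genes on every array from day 0 to day 10, with filled red circles and a red line of means for Sox17 shRNA, open squares and a grey line for control, and day 8 shaded. The control lines of Myl2, Tnnt2, Tnni3 and Igfbp1 lie far above the Sox17 shRNA lines at day 8 and day 10, while those of Nkx1-2, apart from day 4 on, and of Apela differ at day 8 and lie close together at day 10.

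A test of the change in the difference called 51 genes between day 6 and day 8 (0.384%), 22 of them with a more positive difference at day 8 (0.165%) and 29 with a more negative one (0.218%). Of 90 genes in the 4 heart lists, 18 were among these. The difference was less negative at day 8 in 5 heart genes, namely Myl7, Myl4, Tnnt2, Mef2c and Myocd. Tnnt2 read 4.97 and 5.37 with Sox17 shRNA, against 10.98 and 11.05 in control at day 6, and its knockdown arrays read 8.08 and 7.54 at day 8 (change of the difference 2.06, adjusted p 0.000191). Myl7 read 5.54 and 6.09 with Sox17 shRNA, against 12.31 and 12.50 in control at day 6 (change 2.54, adjusted p 0.0376). The knockdown arrays thus held more Tnnt2 and Myl7 signal at day 8 than at day 6, while the control arrays were near their level of day 6. Only Tnnt2 of these 5 was called whichever of the 8 arrays was left out; Myl7 was called in 2 of these 8 fits, Myl4 and Myocd in 1 each and Mef2c in 5.

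The difference was more negative at day 8 in 13 heart genes, which include Tnni3, Csrp3, Cacna2d2, Pln, Srl, Asb2 and Cacna1h. Tnni3 read 4.66 and 4.22 with Sox17 shRNA, against 4.76 and 4.55 in control at day 6 (day 6 difference -0.22, adjusted p 0.815; change -3.06, adjusted p 0.000446). Cacna2d2 read 5.97 and 6.08 with Sox17 shRNA, against 6.20 and 6.05 in control at day 6 (change -2.49, adjusted p 0.00174). The Sox17 shRNA arrays of both genes were near their day 6 level at day 8, and the control arrays read higher at day 8 than at day 6. Tecrl (change -2.56, adjusted p 1.24e-05) and Igfbp1 (change -2.13, adjusted p 0.00314), outside the heart lists, were also more negative, with Tecrl at -1.26 (adjusted p 5.24e-05) and Igfbp1 at -0.11 (adjusted p 0.91) at day 6. Tecrl, Tnni3, Cacna2d2, Srl and Igfbp1 were called whichever 1 of the 8 arrays was left out, and Csrp3 in all fits but that without the day 6 control replicate 1 (0.0595). Pln was called in 5 of the 8 fits, Cacna1h in 2 and Asb2 in 1.

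**Figure D5:**
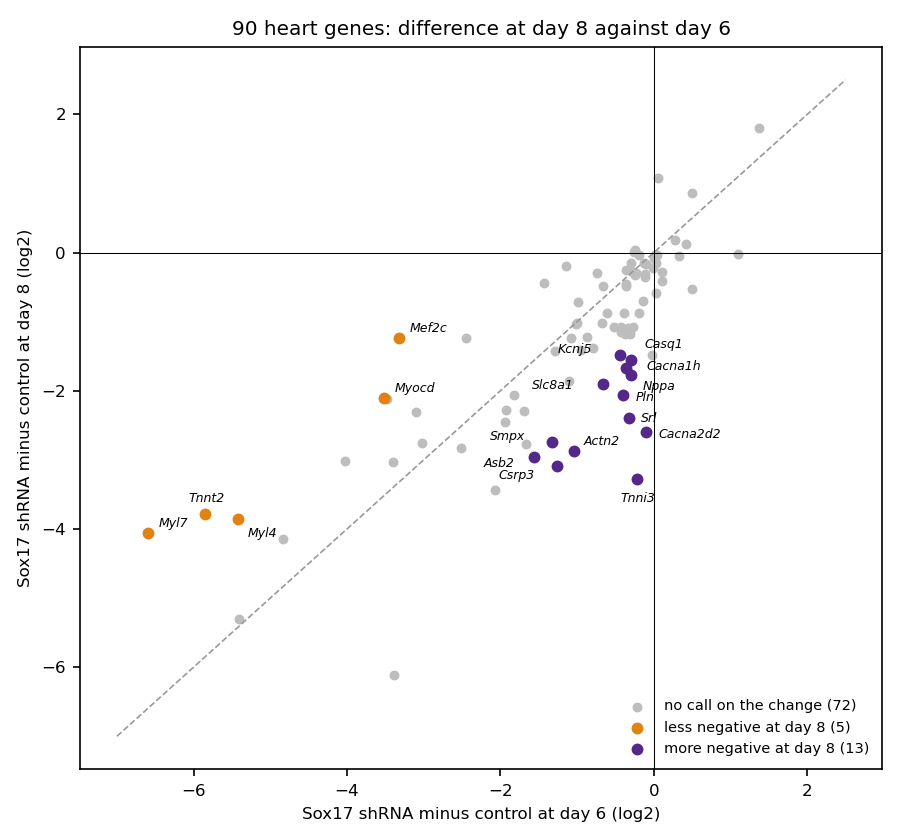
Each point is 1 of 90 heart genes, with Sox17 shRNA minus control at day 6 (log2) on the horizontal axis and at day 8 on the vertical axis; the dashed line marks equal differences. Orange points, 5 genes whose difference was less negative at day 8, lie above the line, and purple points, 13 genes whose difference was more negative, lie below it, while 72 grey points carry no call on the change.

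Among genes that rose, Apela, Tent5c, a poly(A) polymerase of blood cells, and Dlk1 had a more positive difference at day 8 than at day 6. Apela read 9.28 and 9.89 with Sox17 shRNA, against 9.96 and 9.90 in control at day 6, with a difference of -0.34 there (adjusted p 0.55; change 2.32, adjusted p 0.00177). Tent5c changed by 2.09 (adjusted p 0.00131). Dlk1 changed by 1.72 (adjusted p 0.00506). It was lower with Sox17 shRNA at day 6 (-0.89, adjusted p 0.0103) and higher at day 8. Its change was not called without the day 6 control replicate 1 (0.0571).

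Between day 8 and day 10 the change of the difference was called for 18 genes (0.135%), 4 of them more positive at day 8 (0.0301%) and 14 more negative (0.105%), and 7 of them were also called at day 8. Igfbp1 read 4.93 and 3.88 with Sox17 shRNA, against 9.57 and 9.49 in control at day 10, so its difference of -2.25 at day 8 was smaller in size than the -5.13 of day 10 (day 8 minus day 10, 2.88, adjusted p 0.000272), and it was called whichever array was left out. Nkx1-2 read 4.04 and 4.74 with Sox17 shRNA, against 4.08 and 4.04 in control at day 10, where the difference of 2.37 seen at day 8 was 0.33 (day 8 minus day 10, 2.04, adjusted p 0.0183). Apela differed by 0.10 at day 10 (day 8 minus day 10, 1.87, adjusted p 0.0312). Myh6 was more negative at day 8 than at day 10 (-1.26, adjusted p 0.021), where it read 6.94 and 7.29 with Sox17 shRNA, against 11.15 and 11.16 in control. Of the 8 fits that each leave out 1 array, Myh6 was called in 3, Nkx1-2 in 2 and Apela in 1. Against day 2, 311 genes had a different arm difference at day 8 (2.34%), with 118 more positive (0.887%) and 193 more negative (1.45%), 230 of which were called at day 8 itself.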

How the data were processed

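The deposited table holds log2 expression values that the authors made by robust multi-array averaging (RMA), per the submitters' processing notes; the RMA version and the array's model are not stated in the labels. It covers 45101 probe sets on 27 arrays, with values from 2.66 to 14.5 and array medians from 5.5 to 5.56, and 27 arrays, 2 in each day 8 group, limit the precision. Of the probe sets, 34958 had 1 gene symbol in the platform annotation, 932 had several and 9211 were not listed. Probe sets above the median of all values (5.53) on at least 2 arrays were kept, and the brightest single-symbol probe set stood for each of 13297 genes. Arrays of either arm count toward this filter, so a gene can pass through the arm in which it is high. This can raise the share of calls in a list, as it can over all genes.

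A model with a mean for each of 14 groups was fitted in limma 3.58.1 (R 4.3.3) with an intensity trend, no replicate term, 13 residual degrees of freedom and Benjamini-Hochberg adjustment over all genes. Changes of the arm difference between days were tested as contrasts of the same fit. An exact permutation test of 2 against 2 arrays cannot give a p below 0.333, so none was used.

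The genes named are Sox17, Hhex and Cer1, the 12 largest rises and 12 largest falls called with the groups apart, the 3 largest called members of each of 37 gene lists (2 where none was called), the 5 largest departures in each direction from another day, and other list members for their role. The lists hold 831 genes, of which 691 were measured. The members and lists were chosen with earlier results of these data known. Same-numbered arrays of the arms correlated in their deviations by 0.129, 0.683, 0.22, 0.117, 0.102 and 0.099 at days 2 to 10, so the numbers were not taken to pair the arms. Alternatives changed the filter, the probe set, the scaling, the moderation, the weights, the arrays in the fit and the replicate terms.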

Additional observations from a re-analysis of the deposited data

Results flagged for a closer look

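The values here are changes in the Sox17 shRNA minus control difference, day 8 minus another day on the log2 scale, for genes named above in which limma's test of that change gave a Benjamini-Hochberg adjusted p under 0.05. No explanation was tested. Each harvest has 2 arrays for each arm. The day 2 arrays differ from those of day 8 in hybridisation control signal, as given above.

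Against day 6, the change was positive for Myl7 (2.54), Apela (2.32), Tent5c (2.09), Mef2c (2.08), Tnnt2 (2.06), Dlk1 (1.72), Myl4 (1.57) and Myocd (1.42). It was negative for Tnni3 (-3.06), Tecrl (-2.56), Cacna2d2 (-2.49), Igfbp1 (-2.13), Srl (-2.06), Csrp3 (-1.82), Pln (-1.66), Asb2 (-1.39), the calcium channel gene Cacna1h (-1.30) and the peptide hormone gene Cck (-1.05). Adjusted p-values ran from 1.24e-05 for Tecrl to 0.045 for Myocd and Asb2. Of the 8 fits that each leave out 1 array, Myl4, Myocd and Asb2 were called in 1, Myl7, Cacna1h and Cck in 2, Pln and Mef2c in 5, Csrp3 and Dlk1 in 7 and the other 8 genes in all. Cacna1h has 2 probe sets that differ in direction at day 8.

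Against day 10, the change was positive for Igfbp1 (2.88), Nkx1-2 (2.04) and Apela (1.87). It was negative for the matrix gene Spon1 (-1.89), Cacna1h (-1.34), Myh6 (-1.26) and Cck (-1.08). The largest adjusted p was 0.0485, for Spon1 and Cck, and of the 8 fits that leave out 1 array, Cck was called in none, Apela and Spon1 in 1, Nkx1-2 and Cacna1h in 2, Myh6 in 3 and Igfbp1 in all.

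Against day 2, the changes of muscle genes were negative. They were -5.99 for Myl2, -4.35 for Myh6, -4.29 for Myl7, -3.87 for Myl4, -3.81 for Tecrl, -3.59 for Tnnt2, -3.54 for Tnni3, -3.53 for Myl3, -3.44 for Ttn, -3.38 for Sphkap, -3.12 for Asb2, -3.11 for Csrp3, -3.02 for Ryr2, -2.33 for Srl, -2.12 for Pln, -1.93 for Myocd, -1.87 for Smyd1, -1.82 for Cacna2d2, -1.80 for Cacna1h and -1.42 for the skeletal muscle gene Tnnt1. Other negative changes were -2.84 for Id4, -2.59 for Spon1, -2.50 for Sema3d, -2.44 for Cck, -2.31 for Igfbp1, -2.26 for Pax6, -1.73 for Hey1, -1.61 for Otx2, -1.60 for Mov10l1, -1.11 for Mitf, -1.06 for Spry1, -1.03 for Sox21, -1.01 for Heyl and -0.95 for Trp63.

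Positive changes against day 2 were found in blood genes, with 3.005 for Alas2, 2.84 for Nfe2, 2.38 for Gata1, 2.19 for Plek, 1.67 for Kel and 1.58 for Tent5c. In posterior and allantois genes they were 2.57 for Tbx4, 2.12 for Nkx1-2, 2.02 for Hoxc8, 1.89 for Hand1, 1.73 for Pitx1, 1.67 for Hoxa11, 1.43 for Hoxc10 and 1.36 for Dlk1. In mesenchyme and mesothelium they were 2.01 for Upk3b, 1.57 for Loxl1 and 1.499 for Col1a1. Gas6 (2.32), Apela (1.83), Hsd11b2 (1.83) and Cbln1 (1.60) complete the set. Of these genes, 35 were called against day 2 whichever array was left out. Of the 8 such fits, Loxl1 was called in none, Hsd11b2, Kel, Col1a1, Upk3b and Hey1 in 1, Alas2 and Trp63 in 2, Heyl, Mitf and Hoxa11 in 3, Cbln1, Smyd1 and Pitx1 in 4, Otx2, Spry1 and Dlk1 in 5, Cacna2d2 and Gata1 in 6 and Sox21 in 7.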

How the results depend on the processing

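Of the 641 genes called (251 higher and 390 lower), the 4 day 8 arrays alone called 335 (134 and 201) and array weights 1063 (454 and 609). Leaving out 1 day 8 array gave 309 to 704 genes changed, 85 to 351 higher and 197 to 353 lower, with the lowest total without control replicate 1. The replicate block that pairs same-numbered arrays of the arms at each day called 935 genes, 396 of them higher and 539 lower, with 4 mitochondrial, 2 proliferation, 1 stress response, 1 Wnt and 1 visceral endoderm gene from lists without a call, while 1 replicate term over all days called 719. A replicate block for the Sox17 shRNA arm alone, added after seeing the data as were the fits without arrays of days 2, 6 and 10, called 895. Called list members, 137 as reported, ranged from 98 to 193. For the change against day 10, called in 18 genes, the median of probe sets gave 29, a day 8 filter 5, the 16 arrays from day 5 on 7, array weights 61 and the Sox17 shRNA arm block 31. Leaving out 1 array gave 6 to 40 there, the extremes without either day 10 control replicate and without Sox17 shRNA replicate 2 of day 10, with 7 without either day 8 control replicate. It gave 22 to 66 for the 51 genes against day 6, with 22 and 30 without day 6 control replicates 1 and 2, and 29 and 30 without day 8 control replicates 1 and 2. Against day 2, 311 became 540 with array weights and 159 to 275 on leaving out 1 array, with 159 and 173 without day 8 control replicates 2 and 1, 177 and 204 without day 2 control replicates 1 and 2, and 204 without Sox17 shRNA replicate 2 of day 2. The Hhex difference turned positive on centring (0.057), without Sox17 shRNA replicate 2 (0.388) and without control replicate 1 (0.003), never with a call; leaving out 1 array gave -0.389 to 0.388. Of 1534 recomputed values of named genes, 98 lost their call, 22 gained one and 3 changed sign. The cause of these shifts was not tested. With 2 arrays a group, 1 left out leaves a lone array assumed to vary like the other groups.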
